A study of Mus musculus with 9 samples.

Results

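The genes described here encode the molecules that show peptides to T cells and the machinery that cuts, carries and loads those peptides. They are the genes of the mouse major histocompatibility complex (MHC), called H2 in mice, together with a short list of antigen processing genes. A gene was included when its symbol begins with H2- or is B2m, Tap1, Tap2, Tapbp, Psmb8, Psmb9, Psmb10, Cd74, Ciita, Nlrc5 or Erap1. This gave 39 of the 18094 genes in the table: 29 with an H2- symbol and 10 of the 11 named genes, with Psmb9 not analysed here. By role they are 2 classical class I genes, 16 non-classical class I genes, 12 class II genes, 8 processing genes, and H2-Ke6, a steroid dehydrogenase gene that lies within the complex but encodes no MHC molecule.

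The study sequenced polyA RNA of endothelial cells taken from mouse hearts on magnetic beads. There were 3 groups of 3 libraries: the hypertensive strain BPH/2J at 22 weeks of age, BPH/2J at 4 weeks, and the normotensive strain BPN/3J at 22 weeks. The labels give no treatment and no transgene, and they do not say that libraries of a group came from separate animals, so a p-value rests on how far libraries of a group lie apart, a spread that can be technical. Strain background and blood pressure cannot be told apart in these groups, and 4-week BPH/2J against 22-week BPN/3J differs in strain and age together.

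Classical class I molecules, H2-K and H2-D, are heavy chains that pair with beta-2 microglobulin (B2m) on nearly all nucleated cells and show peptides of cytosolic proteins to CD8 T cells. Those peptides are cut by the proteasome, pumped into the endoplasmic reticulum by TAP and trimmed and loaded there. Class II molecules, H2-A and H2-E, are pairs of an alpha and a beta chain that show peptides of endocytosed proteins to CD4 T cells; dendritic cells, B cells and macrophages make the most, and endothelium can be induced to make them. Nlrc5 is the transcriptional activator of class I genes and Ciita that of class II genes, and interferon gamma raises both.

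Total counts per library were 28806840 to 32913813, so 3 counts corresponded to 0.0911 to 0.104 CPM, the count relative to the library total scaled to a common depth. Values below are CPM rescaled by the trimmed mean of M values (TMM), differences are log2 ratios ± standard error from edgeR's quasi-likelihood fit over 15277 genes, and a gene is called when its Benjamini-Hochberg adjusted p over those genes is below 0.05. Of the 39 members, 36 passed the filter on low counts. H2-Eb2, H2-Q3 and H2-Ke6 had 0 to 10 counts in every library and were not tested. All 29 genes with an H2- symbol lie on chromosome 17, as do Tap1, Tap2, Tapbp and Psmb8, while B2m is on chromosome 2, Psmb10 and Nlrc5 on 8, Erap1 on 13, Ciita on 16 and Cd74 on 18.

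The stretches that carry the shared upstream elements of class I genes are shown first. No link between these elements and the differences between groups was tested. The stretches come from RefSeq promoters on GRCm38.p6, of which 26 of the 39 members had at least 1, in 28 windows running from 250 bases before to 50 bases after a gene start. Each stretch is 145 bases, read 5′ to 3′ on the gene's strand, and ends just past the Y box nearest the gene start. Capitals mark exact matches on either strand, none overlapping another in the stretches shown, to GGGGATTCC (the core of enhancer A, bound by NF-kB proteins), GAAANNGAA (the core of the interferon-stimulated response element, ISRE) and CCAAT (the Y box, bound by NF-Y), which reads ATTGG on the other strand. The stretches are at chr17:34000330-34000474 (minus strand) for H2-K1, chr17:35262906-35263050 (plus) for H2-D1, chr17:35424660-35424804 (plus) for H2-Q6, chr17:35439004-35439148 (plus) for H2-Q7, chr17:35379427-35379571 (plus) for H2-Q4, chr17:36032744-36032888 (minus) for H2-T23 and chr2:122147499-122147643 (plus) for B2m.
H2-K1: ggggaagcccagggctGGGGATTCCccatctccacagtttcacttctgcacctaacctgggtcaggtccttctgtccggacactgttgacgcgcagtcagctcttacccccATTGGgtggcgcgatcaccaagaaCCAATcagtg
H2-D1: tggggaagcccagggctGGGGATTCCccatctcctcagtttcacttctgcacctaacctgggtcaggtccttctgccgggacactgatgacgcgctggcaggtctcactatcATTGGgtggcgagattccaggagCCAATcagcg
H2-Q6: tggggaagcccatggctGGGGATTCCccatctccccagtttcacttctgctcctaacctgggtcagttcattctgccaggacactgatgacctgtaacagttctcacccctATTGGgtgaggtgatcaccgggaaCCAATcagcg
H2-Q7: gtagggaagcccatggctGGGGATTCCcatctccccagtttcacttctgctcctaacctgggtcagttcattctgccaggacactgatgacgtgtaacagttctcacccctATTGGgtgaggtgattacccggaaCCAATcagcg
H2-Q4: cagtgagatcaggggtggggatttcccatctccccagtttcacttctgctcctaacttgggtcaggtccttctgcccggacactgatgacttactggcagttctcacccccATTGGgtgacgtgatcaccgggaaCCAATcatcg
H2-T23: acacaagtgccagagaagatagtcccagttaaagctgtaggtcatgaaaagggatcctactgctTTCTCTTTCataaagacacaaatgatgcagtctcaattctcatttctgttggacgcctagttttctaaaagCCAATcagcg
B2m: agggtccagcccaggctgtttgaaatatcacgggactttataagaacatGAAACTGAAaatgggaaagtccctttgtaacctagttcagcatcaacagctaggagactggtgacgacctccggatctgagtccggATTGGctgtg

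The enhancer A core was present in 5 of the 28 member windows, those of H2-D1, H2-Q6, H2-Q7 and both starts of H2-K1, against 82 of 32851 promoters in the whole table (0.250%). The H2-Q4 window does not hold those exact letters. The ISRE core was present in 4 member windows, those of B2m, Erap1, H2-T22 and H2-T23, against 8.56% of all promoters. The H2-K1, H2-D1, H2-Q6, H2-Q7 and H2-Q4 stretches share the letters agtttcacttct, which resemble this core without matching it exactly and are left unmarked. The Y box was in 22 of 28 windows, against 37.4%. GCAACAG (the core of the class II X1 box, bound by the RFX complex) was in 0 of 28 windows, against 5.48% of all promoters. Only exact letters were counted, so a window without a match can still hold a variant of an element. Near variants upstream of the Y box, such as gcaacaa in the H2-Ob window and gcaactg in that of H2-Eb1, were not counted. These matches describe the reference sequence, not the strains studied, and no binding was measured.

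Class I and class II genes were lower in 22-week BPH/2J endothelium than in 22-week BPN/3J endothelium. Of the 36 tested members, 25 were lower and 0 were higher; over all tested genes 38.0% were called, 18.2% lower and 19.8% higher. The median log2 difference of the members was -0.91, against 0.02 over all tested genes. By class, 2 of 2 classical, 11 of 15 non-classical, 7 of 11 class II and 5 of 8 processing genes were lower, with medians of -0.96, -0.99, -1.30 and -0.41. The 3 libraries of each strain did not overlap for 24 members, all lower in BPH/2J, where 55.7% of all tested genes did not overlap and 26.4% were lower without overlap. In bulk RNA, fewer cells of a type and less RNA per cell cannot be told apart. H2 genes are also among the most variable between mouse strains, and in the comparisons across strain a loss of alignments from alleles unlike the reference genome and lower RNA cannot be told apart.

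**Figure D1:**
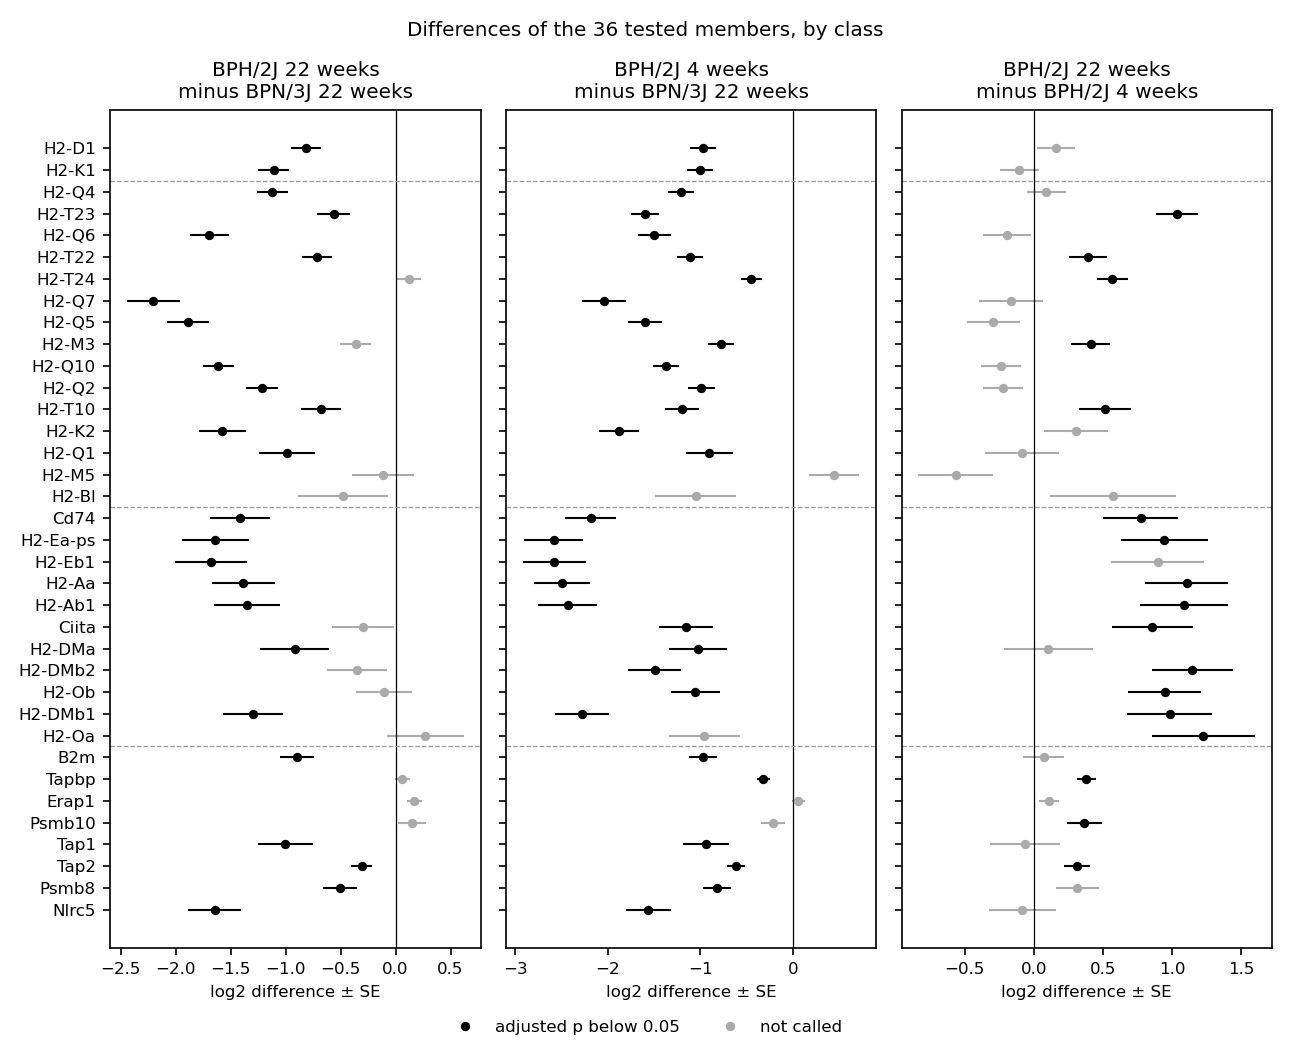
Log2 differences ± SE of the 36 tested members in the 3 comparisons, in rows by class (classical class I, non-classical class I, class II, processing, divided by dashed lines); black points are called at an adjusted p below 0.05 and grey points are not. In both comparisons with BPN/3J the called members lie left of 0, 25 for 22-week and 31 for 4-week BPH/2J, and in the age comparison the 17 called members lie right of it.

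One BPN/3J library stood above its group for these genes: replicate 1 was the highest of the 3 for 34 of 36 members, including all 11 class II and all 8 processing genes. Its macrophage and monocyte marker list was also the highest of its group, at 704 summed CPM against 410 and 464. Without that library, 22 members were lower in 22-week BPH/2J and 1 was higher, Erap1 (0.25, adjusted p = 0.0193). The class medians without it were -0.83 for classical, -0.89 for non-classical, -0.96 for class II and -0.23 for processing genes. Psmb8, Tap2 and H2-DMa were then no longer called.

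H2-D1 and H2-K1, the classical heavy chains, were lower in BPH/2J at both ages than in BPN/3J. H2-D1 had 1159, 1192 and 1269 CPM in 22-week BPH/2J, 902, 1247 and 1095 CPM in 4-week BPH/2J, and 2472, 2130 and 1767 in BPN/3J. H2-K1 had 170, 193 and 189 CPM in 22-week BPH/2J, 167, 231 and 196 CPM in 4-week BPH/2J, and 470, 394 and 326 in BPN/3J. No BPH/2J library of either age reached the lowest BPN/3J library for either gene. The differences of 22-week BPH/2J from BPN/3J were -0.81 ± 0.14 for H2-D1 (adjusted p = 0.00123, edgeR) and -1.11 ± 0.14 for H2-K1 (adjusted p = 0.00021). Those of 4-week BPH/2J were -0.97 ± 0.14 and -1.00 ± 0.14, and neither gene was called between 22-week and 4-week BPH/2J (0.16 ± 0.14 and -0.11 ± 0.14).

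B2m, the light chain shared by all class I molecules, was lower in BPH/2J at both ages as well. It had 1399, 1412 and 1545 CPM in 22-week BPH/2J, 1241, 1541 and 1367 CPM in 4-week BPH/2J, and 3318, 2724 and 2072 in BPN/3J. The difference from BPN/3J was -0.90 ± 0.15 at 22 weeks (adjusted p = 0.00121) and -0.97 ± 0.15 at 4 weeks (adjusted p = 0.00037). The summed CPM of the class I heavy chains, 2265 to 2433 in 22-week BPH/2J, 1790 to 2353 in 4-week BPH/2J and 3613 to 5361 in BPN/3J, was 1.44 to 1.74 times that of B2m in all 9 libraries. Per kilobase of the deposited gene length, B2m had the highest mean level of all members in each group (1688, 1608 and 3145 CPM per kb) and H2-D1 the next (466, 418 and 820), where the group order is 22-week BPH/2J, 4-week BPH/2J and BPN/3J.

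**Figure D2:**
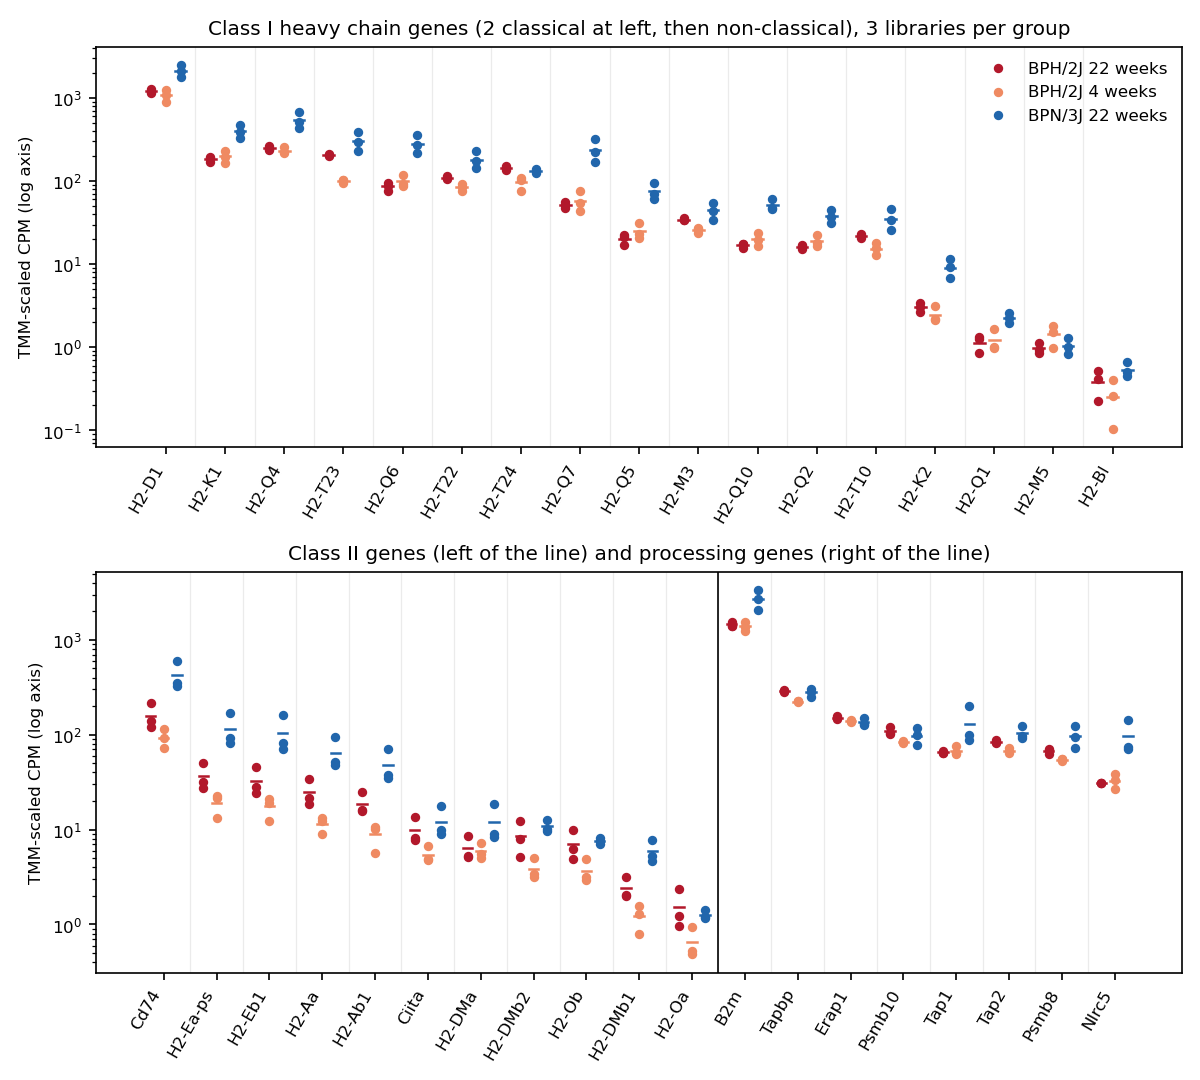
TMM-scaled CPM (log axis) of each tested member in every library, with class I heavy chains above and class II and processing genes below; points are libraries, short bars group means, and the groups run 22-week BPH/2J, 4-week BPH/2J, BPN/3J from left to right within a gene. For H2-D1, H2-K1 and the 7 H2-Q genes all 6 BPH/2J libraries lie below the 3 BPN/3J libraries, whereas for H2-T24 the 22-week BPH/2J and BPN/3J libraries overlap.

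The H2-Q genes, non-classical heavy chains that include those of the Qa-2 molecule, included the largest class I difference between the strains, that of H2-Q7, and gave no call between the ages. All 7 tested H2-Q genes were lower in 22-week BPH/2J than in BPN/3J, with a median of -1.61, and all 7 were lower in 4-week BPH/2J. Over all tested genes 18.2% and 25.3% were lower in these comparisons, and 41.0% were called between the ages. H2-Q7 had 46.9, 51.6 and 55.5 CPM in 22-week BPH/2J, 43.4, 75.6 and 53.8 CPM in 4-week BPH/2J, and 319, 221 and 168 in BPN/3J. Its difference from BPN/3J was -2.20 ± 0.24 at 22 weeks (adjusted p = 6.95e-05) and -2.04 ± 0.24 at 4 weeks (adjusted p = 4.8e-05), the largest of any class I member.

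H2-Q6 and H2-Q5 followed. H2-Q6 had 76.8, 88.2 and 94.7 CPM in 22-week BPH/2J, 86.4, 119 and 91.3 CPM in 4-week BPH/2J, and 356, 268 and 215 in BPN/3J (-1.69 ± 0.18 at 22 weeks, adjusted p = 5.75e-05). H2-Q5 had 17.2, 21.4 and 22.4 CPM in 22-week BPH/2J, 20.4, 31.5 and 22.8 CPM in 4-week BPH/2J, and 94.5, 70.2 and 61.2 in BPN/3J (-1.89 ± 0.19 at 22 weeks, adjusted p = 4.35e-05). For both genes the highest BPH/2J library of either age stayed below the lowest BPN/3J library. H2-Q4, the most abundant non-classical heavy chain in CPM per kb, had 236, 244 and 261 CPM in 22-week BPH/2J, 217, 257 and 221 CPM in 4-week BPH/2J, and 671, 512 and 429 in BPN/3J (-1.12 ± 0.14 at 22 weeks, adjusted p = 0.000184). H2-Q10, which encodes a secreted heavy chain known from liver, H2-Q2 and H2-Q1 had log2 differences of -1.61, -1.21 and -0.99 at 22 weeks, all called, the last not without 22-week BPH/2J replicate 1 (adjusted p = 0.0504).

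The H2-Q genes resemble each other in sequence, so a read can fit more than 1 of them. Of all stretches of 100 bases, the read length, in the GENCODE M21 transcripts, H2-Q5 shared 14.0% with another gene, H2-Q7 12.0%, H2-Q6 10.8%, H2-Q1 8.05%, H2-Q10 8.01%, H2-Q2 5.09% and H2-Q4 2.16%. For H2-D1 the share was 3.59% and for H2-K1 0.957%, and it was 0 for B2m and Nlrc5. How the authors counted such reads is not given in the sources used here, so the split among H2-Q genes is less certain than their sum. That sum was 410 to 468 CPM in 22-week BPH/2J, 401 to 532 in 4-week BPH/2J and 952 to 1550 in BPN/3J.

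Of the 4 H2-T genes, 3 were lower in 22-week BPH/2J than in BPN/3J, and all 4 were higher in 22-week than in 4-week BPH/2J. Over all tested genes 38.0% were called between the strains at 22 weeks (18.2% lower) and 41.0% between the ages (19.9% higher). H2-T23 encodes Qa-1, which shows leader peptides of other class I chains to the NKG2A receptor of NK and CD8 T cells. It had 212, 203 and 202 CPM in 22-week BPH/2J, 104, 102 and 94.3 CPM in 4-week BPH/2J, and 390, 293 and 228 in BPN/3J. The 3 groups did not overlap: 22-week BPH/2J was above 4-week BPH/2J (1.04 ± 0.15, adjusted p = 0.000452) and below BPN/3J (-0.56 ± 0.15, adjusted p = 0.0139), and 4-week BPH/2J was below BPN/3J (-1.60 ± 0.15, adjusted p = 1.3e-05).

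H2-T22 and H2-T10 encode peptide-free molecules that γδ T cells recognise. H2-T22 had 109, 114 and 107 CPM in 22-week BPH/2J, 91.0, 83.6 and 76.8 CPM in 4-week BPH/2J, and 227, 173 and 142 in BPN/3J. H2-T10 had 22.1, 20.8 and 23.1 CPM in 22-week BPH/2J, 17.8, 15.6 and 12.9 CPM in 4-week BPH/2J, and 45.8, 34.3 and 25.7 in BPN/3J. Both were lower in 22-week BPH/2J than in BPN/3J (-0.71 ± 0.14, adjusted p = 0.00264, and -0.68 ± 0.18, adjusted p = 0.0136). Both were higher in 22-week than in 4-week BPH/2J (0.39 ± 0.14, adjusted p = 0.044, and 0.52 ± 0.19, adjusted p = 0.0464). These age calls lie close to the threshold and both were lost when any 1 of 6 libraries (the 22-week BPH/2J ones, 4-week BPH/2J replicates 2 and 3, BPN/3J replicate 2) was left out, with adjusted p between 0.0602 and 0.15. H2-T22 shared 8.86% and H2-T10 7.06% of their 100-base stretches with another gene, mostly each other, so their split is less certain than their sum.

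H2-T24 was the one H2-T gene not called between the strains at 22 weeks. It had 145, 150 and 135 CPM in 22-week BPH/2J, 76.9, 109 and 103 CPM in 4-week BPH/2J, and 139, 125 and 131 in BPN/3J. The difference between the ages of BPH/2J was 0.57 ± 0.11 (adjusted p = 0.00269), that of 22-week BPH/2J from BPN/3J 0.12 ± 0.11 (adjusted p = 0.425), and that of 4-week BPH/2J from BPN/3J -0.45 ± 0.11 (adjusted p = 0.00653).

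The make-up of class I counts differed between the groups. H2-Q genes held 18.7% ± 0.559 of the class I heavy chain counts in 22-week BPH/2J, 22.0% ± 0.858 in 4-week BPH/2J and 27.3% ± 1.43 in BPN/3J (SD, n = 3 each). H2-T genes held 20.5% ± 1.22 in 22-week BPH/2J, 14.5% ± 1.52 in 4-week BPH/2J and 14.6% ± 0.319 in BPN/3J. The H2-Q share did not overlap between any of the 3 groups, and the H2-T share of 22-week BPH/2J lay above all 6 other libraries, while 4-week BPH/2J and BPN/3J overlapped. H2-D1 held 51.4% ± 0.742, 52.4% ± 1.81 and 47.9% ± 1.59 in the same group order. The ratio of H2-D1 to H2-K1 counts was 6.57 ± 0.343 in 22-week BPH/2J, 5.46 ± 0.113 in 4-week BPH/2J and 5.37 ± 0.0884 in BPN/3J. These shares are of counts and not corrected for gene length, and an exact permutation test of 3 against 3 libraries cannot go below p = 0.10, so none was run.

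**Figure D3:**
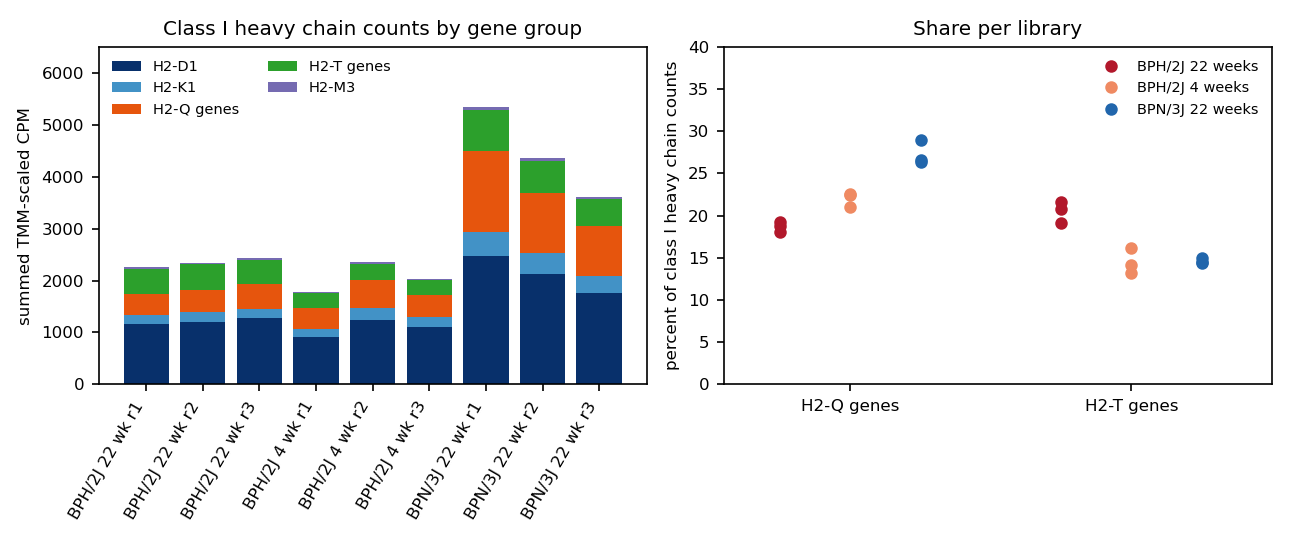
Left, summed TMM-scaled CPM of the class I heavy chains in each of the 9 libraries, stacked by gene group (H2-K2, H2-M5 and H2-Bl, each at most 11.4 CPM, are not drawn); right, the percentage of class I counts in H2-Q and H2-T genes, 1 point per library. The 22-week BPH/2J libraries have the lowest H2-Q share, 18.1 to 19.2%, and the highest H2-T share, 19.2 to 21.6%.

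Among the remaining non-classical genes, H2-K2 was lower in BPH/2J at both ages, with 2.66, 3.09 and 3.42 CPM at 22 weeks, 2.22, 3.10 and 2.12 CPM at 4 weeks, and 11.4, 9.17 and 6.74 CPM in BPN/3J (-1.58 ± 0.22 and -1.88 ± 0.22, adjusted p = 0.000332 and 4.97e-05). H2-M3, which shows N-formylated peptides of bacteria and mitochondria, averaged 34.4 ± 1.23 CPM in 22-week BPH/2J, 25.9 ± 1.89 in 4-week BPH/2J and 44.3 ± 10.4 in BPN/3J (SD, n = 3 each), and it was lower in 4-week BPH/2J than in BPN/3J (-0.78 ± 0.14, adjusted p = 0.000938). The H2-M3 difference of 22-week BPH/2J from BPN/3J, -0.36 ± 0.14, was not called (adjusted p = 0.0609). Between the ages of BPH/2J it was 0.41 ± 0.14 (adjusted p = 0.0381), a call lost in 6 of the 9 fits that left out 1 library. H2-M5 and H2-Bl, at 0.103 to 1.79 CPM, were not called in any comparison.

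Class II genes showed the largest differences of any class when 4-week BPH/2J was set against BPN/3J. At 4 weeks 31 of the 36 members were lower in BPH/2J than in BPN/3J and 0 were higher, where 53.1% of all tested genes were called and 25.3% were lower. The libraries did not overlap for 33 members, against 59.2% of all tested genes. The medians were -0.99 for classical, -1.20 for non-classical, -2.19 for class II and -0.72 for processing genes. Of the 11 class II genes 10 were called lower, and for all 11 the 4-week BPH/2J libraries lay below those of BPN/3J. The median over the 4 tested presenting chains was -2.54.

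The presenting chains are the alpha and beta chains of the H2-A and H2-E molecules. H2-Aa had 21.4, 18.8 and 34.2 CPM in 22-week BPH/2J, 12.2, 13.4 and 8.96 CPM in 4-week BPH/2J, and 95.1, 51.4 and 47.8 in BPN/3J. H2-Ab1 had 15.6, 16.0 and 24.7 CPM in 22-week BPH/2J, 10.2, 10.7 and 5.71 CPM in 4-week BPH/2J, and 70.7, 38.0 and 35.0 in BPN/3J. The 3 groups did not overlap for either gene. Against BPN/3J the differences at 22 weeks were -1.39 ± 0.29 for H2-Aa (adjusted p = 0.00374) and -1.35 ± 0.30 for H2-Ab1 (adjusted p = 0.00553), and those at 4 weeks -2.49 ± 0.30 and -2.43 ± 0.32. Between the ages of BPH/2J they were 1.11 ± 0.30 (adjusted p = 0.0139) and 1.08 ± 0.32 (adjusted p = 0.0199).

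The H2-E chains are listed as H2-Eb1 and H2-Ea-ps, a symbol that marks the alpha chain gene as a non-functional allele in the reference strain C57BL/6. Transcripts of H2-Ea-ps were counted in every library: 31.8, 27.4 and 50.7 CPM in 22-week BPH/2J, 21.4, 22.4 and 13.3 CPM in 4-week BPH/2J, and 167, 92.3 and 82.6 in BPN/3J. H2-Eb1 had 28.2, 24.5 and 45.2 CPM in 22-week BPH/2J, 19.2, 21.1 and 12.2 CPM in 4-week BPH/2J, and 161, 81.7 and 71.4 in BPN/3J. The ratio of H2-Eb1 to H2-Ea-ps counts stayed between 0.865 and 0.959 in all 9 libraries, so the beta and alpha chains moved together in both strains. Differences of 22-week BPH/2J from BPN/3J were -1.64 ± 0.30 for H2-Ea-ps (adjusted p = 0.00205) and -1.68 ± 0.33 for H2-Eb1 (adjusted p = 0.00267). Between the ages of BPH/2J H2-Ea-ps was called (0.95 ± 0.31, adjusted p = 0.0334) and H2-Eb1 was not (0.90 ± 0.34, adjusted p = 0.0542).

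Cd74, the invariant chain that occupies the class II groove until peptide loading, was the most abundant class II gene in CPM per kb. It had 139, 121 and 218 CPM in 22-week BPH/2J, 92.4, 115 and 72.5 CPM in 4-week BPH/2J, and 593, 354 and 326 in BPN/3J. The highest BPH/2J library lay below the lowest BPN/3J library, with differences of -1.41 ± 0.27 at 22 weeks (adjusted p = 0.00252) and -2.19 ± 0.28 at 4 weeks (adjusted p = 9.06e-05). The difference between the ages of BPH/2J, 0.77 ± 0.27, had an adjusted p of 0.0419 and was not called when any 1 of 5 libraries (22-week BPH/2J replicates 1 and 3, 4-week BPH/2J replicates 1 and 3, BPN/3J replicate 2) was left out (adjusted p = 0.0508 to 0.173).

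Ciita, the class II activator, was not called between the strains at 22 weeks. It had 8.24, 7.72 and 13.6 CPM in 22-week BPH/2J, 4.80, 6.69 and 4.88 CPM in 4-week BPH/2J, and 17.6, 8.89 and 9.93 in BPN/3J. The 22-week BPH/2J and BPN/3J libraries overlapped (-0.30 ± 0.28, adjusted p = 0.425). The 4-week BPH/2J libraries lay below both, at -1.16 ± 0.29 against BPN/3J (adjusted p = 0.00695) and with a difference of 0.86 ± 0.29 between 22 and 4 weeks (adjusted p = 0.0386). The age call of Ciita was lost without 22-week replicate 3 or 4-week replicate 1 or 3 (adjusted p = 0.161, 0.0763 and 0.112). The ratio of Cd74 to Ciita counts was 16.2 ± 0.663 in 22-week BPH/2J, 17.1 ± 2.20 in 4-week BPH/2J and 35.5 ± 3.80 in BPN/3J (SD, n = 3 each).

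Of the 5 peptide editors of class II loading, 2 were lower in 22-week BPH/2J than in BPN/3J and 4 in 4-week BPH/2J. Over all tested genes 38.0% and 53.1% were called in these comparisons, so the 22-week count is near that share. At 22 weeks the strains did not overlap for 1 of the 5, against 55.7% of all tested genes. H2-DM, formed by H2-DMa with H2-DMb1 or H2-DMb2, removes the invariant chain fragment, and H2-O, formed by H2-Oa and H2-Ob, holds H2-DM back, mostly in B cells. H2-DMb2 had 8.01, 5.15 and 12.3 CPM in 22-week BPH/2J, 4.96, 3.14 and 3.38 CPM in 4-week BPH/2J, and 12.6, 9.55 and 10.2 in BPN/3J. H2-Oa had 1.23, 0.965 and 2.38 CPM in 22-week BPH/2J, 0.946, 0.483 and 0.522 CPM in 4-week BPH/2J, and 1.42, 1.18 and 1.19 in BPN/3J. For both genes the 22-week strains overlapped and the 4-week BPH/2J libraries lay below all others.

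At 22 weeks H2-DMb2, H2-Ob and H2-Oa were not called against BPN/3J (-0.35 ± 0.27, -0.11 ± 0.25 and 0.27 ± 0.35), whereas H2-DMb1 (-1.30 ± 0.27, adjusted p = 0.00411) and H2-DMa (-0.92 ± 0.31, adjusted p = 0.0402) were lower. The H2-DMa call was lost without BPN/3J replicate 1 (-0.45, adjusted p = 0.174), 22-week BPH/2J replicate 1 or 2 (adjusted p = 0.123 and 0.12) or 4-week BPH/2J replicate 3 (adjusted p = 0.0514). H2-DMb1 and H2-DMb2 are neighbouring near-copies that shared 11.3% and 10.3% of their 100-base stretches, so their split is less certain than their sum. Between the ages of BPH/2J the differences were 1.15 ± 0.29 for H2-DMb2, 0.98 ± 0.31 for H2-DMb1, 0.95 ± 0.27 for H2-Ob and 1.23 ± 0.38 for H2-Oa, all called, and 0.10 ± 0.32 for H2-DMa, not called.

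Setting the ages of BPH/2J against each other, 17 of the 36 members were higher at 22 weeks and 0 were lower, where 41.0% of all tested genes were called and 19.9% were higher. The libraries did not overlap for 19 members, against 51.2% of all tested genes. Those called were 9 of 11 class II genes with a median of 0.95, 5 of 15 non-classical genes (the 4 H2-T genes and H2-M3), 3 of 8 processing genes, and 0 of 2 classical genes. The class II part of this result rested on single libraries. Replicate 3 was the highest 22-week BPH/2J library for all 11 class II genes, and replicate 3 was the lowest 4-week BPH/2J library for 7 of 11. Leaving out either one left 4 members called, H2-T23, H2-T24, Tapbp and H2-DMb2, the last being the 1 class II gene, and class II medians of 0.65 and 0.79.

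Some blood cell markers moved with these class II values in some libraries and not in others. Their part in these values was not tested. No marker of any list was at 0 counts in a library. The 22-week BPH/2J replicate 3 that stood highest for class II had 115 summed CPM over 6 B cell markers, against 71.0 and 45.8 in its group, and 175 over 4 pan-leukocyte markers, against 131 and 114. In 4-week BPH/2J, replicate 2 had the highest class II sum (67.6 CPM) and the lowest B cell sum (36.7 CPM). Replicate 3 there had the lowest class II sum (40.2 CPM) and the highest pan-leukocyte sum (153 CPM). The B cell sums of BPN/3J, 48.6 to 54.9 CPM, lay within the 45.8 to 115 CPM of 22-week BPH/2J. T and NK cell markers summed to 23.5 to 29.3 CPM in 22-week BPH/2J, 10.7 to 13.3 in 4-week BPH/2J and 17.3 to 19.5 in BPN/3J, and 8 of 9 tested were higher at 22 than at 4 weeks. In that age comparison 41.0% of all tested genes were called and 19.9% were higher.

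Macrophage and monocyte markers ran differently, at 243 to 281 summed CPM in 22-week BPH/2J, 474 to 906 in 4-week BPH/2J and 410 to 704 in BPN/3J. Of 15 tested, 10 were lower and 1 higher in 22-week BPH/2J than in BPN/3J, and 12 were lower and 1 higher at 22 than at 4 weeks in BPH/2J. Over all tested genes 38.0% were called between the strains at 22 weeks (18.2% lower, 19.8% higher). Between the ages of BPH/2J the share was 41.0% (21.1% lower, 19.9% higher). The 4-week BPH/2J libraries had the lowest class II sums, 40.2 to 67.6 CPM over the 5 presenting chains, the untested H2-Eb2 included. Their macrophage marker sums overlapped those of BPN/3J, whose class II sums were 237 to 494 CPM. In 22-week BPH/2J the class II sums were 86.7 to 155 CPM. The summed dendritic cell markers, 209 to 242, 191 to 256 and 219 to 244 CPM in the same group order, overlapped but consisted mostly of Zbtb46 (159 to 215 CPM) and Clec9a (25.2 to 36.8 CPM), neither of which was called between the strains at 22 weeks. The highest value of the other markers on the list was 4.6 CPM, for Itgax. Whether the Zbtb46 and Clec9a counts came from dendritic cells was not tested, so the sums do not give the dendritic cell content. Of the 8 dendritic cell markers, 2 were lower and 0 higher in 22-week BPH/2J than in BPN/3J, Cd209a (-1.50 ± 0.38, adjusted p = 0.0105) and Itgax (-0.72 ± 0.24, adjusted p = 0.038), with a median of -0.42. This share of calls lies below the 38.0% of all tested genes. Endothelial markers summed to 11810 to 12010, 11190 to 11670 and 8859 to 9269. Cardiomyocyte markers summed to 354 to 410 CPM in 22-week BPH/2J, 268 to 435 in 4-week BPH/2J and 646 to 805 in BPN/3J, with 7 of 8 lower in 22-week BPH/2J than in BPN/3J and 6 of 8 endothelial markers higher; their part in the strain differences was not tested either.

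Class II counts were also set against single leukocyte genes. Ptprc encodes the leukocyte surface protein CD45. The ratio of H2-Aa to Ptprc was 0.381, 0.388 and 0.475 in 22-week BPH/2J, 0.279, 0.313 and 0.210 in BPH/2J at 4 weeks, and 1.495, 0.971 and 0.806 in BPN/3J. The ratio of Cd74 to Ptprc was 2.48, 2.50 and 3.03 in 22-week BPH/2J, 2.11, 2.69 and 1.70 in BPH/2J at 4 weeks, and 9.33, 6.69 and 5.49 in BPN/3J. Neither ratio overlapped between BPH/2J of either age and BPN/3J, whereas the ratio of Ciita to Ptprc overlapped between 22-week BPH/2J (0.147 to 0.189) and BPN/3J (0.167 to 0.277).

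For H2-Aa the strains separated at 22 weeks relative to Ptprc and not relative to Laptm5. Of the 4 pan-leukocyte markers 1 was lower in 22-week BPH/2J than in BPN/3J, the lysosomal membrane gene Laptm5 (-0.92 ± 0.18, adjusted p = 0.00256), while Ptprc was not called (0.00 ± 0.12, adjusted p = 0.981). Of all tested genes 38.0% were called in that comparison. Cd53 and Coro1a, the other pan-leukocyte markers, were not called there and were not used in a ratio. Cd53 had 15.8, 13.1 and 21.9 CPM in 22-week BPH/2J and 20.8, 17.8 and 17.7 CPM in BPN/3J. Coro1a had 32.5, 28.1 and 47.9 CPM in 22-week BPH/2J and 33.7, 27.7 and 25.5 CPM in BPN/3J. Relative to Laptm5, chosen after its values were seen, H2-Aa was 0.802, 0.760 and 1.02 in 22-week BPH/2J, 0.351, 0.297 and 0.158 in BPH/2J at 4 weeks, and 1.497, 1.04 and 0.996 in BPN/3J, so that the 22-week strains overlapped. Cd74 over Laptm5 was 5.22, 4.89 and 6.52 in 22-week BPH/2J, 2.65, 2.56 and 1.28 in BPH/2J at 4 weeks, and 9.34, 7.19 and 6.79 in BPN/3J, without overlap.

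**Figure D4:**
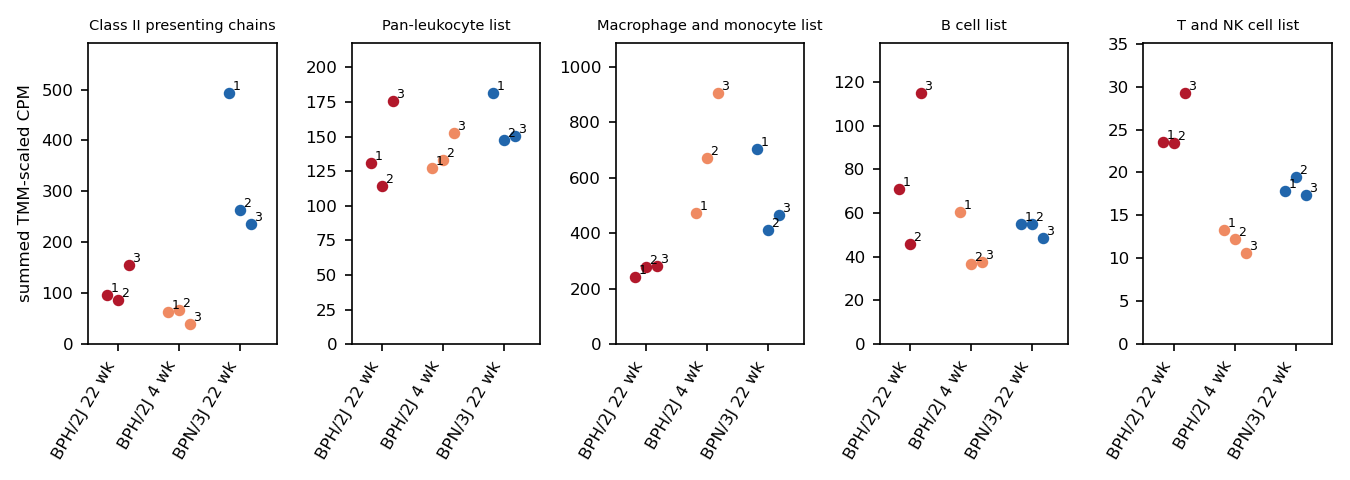
Summed TMM-scaled CPM of the 5 class II presenting chains (the untested H2-Eb2, at most 0.193 CPM, included) and of 4 marker lists in each library (1 point per library, numbered by replicate; axes start at 0 and differ between panels). Replicate 3 of 22-week BPH/2J is highest of its group for class II (155 CPM), pan-leukocyte (175 CPM) and B cell markers (115 CPM), and replicate 1 of BPN/3J for class II (494 CPM) and macrophage and monocyte markers (704 CPM). Replicate 2 of 4-week BPH/2J is highest of its group for class II (67.6 CPM) and lowest for B cell markers (36.7 CPM).

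Of the 8 processing genes, Nlrc5, Tap1, Tap2, Psmb8 and B2m were lower in 22-week BPH/2J than in BPN/3J, where 38.0% of all tested genes were called and 18.2% were lower. Nlrc5, the class I activator, showed the largest difference of the 8. It had 31.2, 30.8 and 30.7 CPM in 22-week BPH/2J, 26.7, 38.5 and 33.0 CPM in 4-week BPH/2J, and 145, 71.4 and 74.1 in BPN/3J. All 6 BPH/2J libraries lay below the 3 BPN/3J libraries, at -1.65 ± 0.24 at 22 weeks (adjusted p = 0.000524) and -1.56 ± 0.24 at 4 weeks (adjusted p = 0.000338), with no call between the ages (-0.08 ± 0.24). Without BPN/3J replicate 1 the 22-week difference was -1.24 (adjusted p = 0.000115).

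Tap1 and Tap2 form the peptide transporter. Tap1 had 64.2, 66.7 and 64.3 CPM in 22-week BPH/2J, 63.0, 76.8 and 64.6 CPM in 4-week BPH/2J, and 203, 100 and 88.1 in BPN/3J (-1.00 ± 0.25 at 22 weeks, adjusted p = 0.0103), and its difference without BPN/3J replicate 1 was -0.53 (adjusted p = 0.00274). Tap2 had 86.9, 81.7 and 84.3 CPM in 22-week BPH/2J, 67.9, 71.8 and 64.5 CPM in 4-week BPH/2J, and 122, 97.8 and 92.8 in BPN/3J. Tap2 was lower in 22-week BPH/2J than in BPN/3J (-0.31 ± 0.09, adjusted p = 0.0259), a call lost without BPN/3J replicate 1 (-0.18, adjusted p = 0.0707) and without each of the 3 22-week BPH/2J libraries in turn (adjusted p = 0.0518 to 0.0795). It was higher in 22-week than in 4-week BPH/2J (0.31 ± 0.09, adjusted p = 0.0241), a call also lost without 22-week replicate 1 or 3 or 4-week replicate 3 (adjusted p = 0.0543 to 0.0826), while Tap1 was not called there (-0.07 ± 0.25).

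Psmb8 and Psmb10 are inducible subunits that replace Psmb5 and Psmb7 in the immunoproteasome. Psmb8 had 71.5, 62.7 and 69.7 CPM in 22-week BPH/2J, 55.6, 55.6 and 52.7 CPM in 4-week BPH/2J, and 124, 93.5 and 71.8 in BPN/3J. Its difference at 22 weeks, -0.50 ± 0.15 (adjusted p = 0.0246), was not called without BPN/3J replicate 1 (-0.28, adjusted p = 0.0688), without BPN/3J replicate 2 (-0.53, adjusted p = 0.0515) or without 22-week BPH/2J replicate 2 or 3 (adjusted p = 0.0796 and 0.0585). The 4-week difference from BPN/3J was -0.82 ± 0.15 (adjusted p = 0.00117). Psmb10 had 119, 101 and 105 CPM in 22-week BPH/2J, 81.9, 86.5 and 84.0 CPM in 4-week BPH/2J, and 117, 98.7 and 77.1 in BPN/3J. Psmb10 was not called against BPN/3J at either age and was higher in 22-week than in 4-week BPH/2J (0.36 ± 0.13, adjusted p = 0.0392), a call lost in 6 of the 9 fits that left out 1 library.

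The balance of inducible to constitutive subunit counts was lowest in 4-week BPH/2J. The ratio of Psmb8 to Psmb5 was 2.45 ± 0.189 in 22-week BPH/2J, 1.43 ± 0.134 in 4-week BPH/2J and 3.67 ± 0.679 in BPN/3J (SD, n = 3 each), with no overlap between groups. The ratio of Psmb10 to Psmb7 was 1.53 ± 0.133, 0.984 ± 0.0829 and 1.61 ± 0.238 in the same order, with 22-week BPH/2J and BPN/3J overlapping. Psmb5 itself was lower in 22-week than in 4-week BPH/2J (-0.46 ± 0.09, adjusted p = 0.00242).

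Tapbp (tapasin), which bridges TAP and the class I heavy chain, and Erap1, which trims peptides, were not called lower in 22-week BPH/2J. Tapbp had 298, 284 and 291 CPM in 22-week BPH/2J, 225, 221 and 225 CPM in 4-week BPH/2J, and 305, 279 and 252 in BPN/3J. The 4-week libraries lay below all others, at -0.32 ± 0.07 against BPN/3J (adjusted p = 0.00342) and 0.38 ± 0.07 between 22 and 4 weeks (adjusted p = 0.00193). Erap1 had 159, 150 and 146 CPM in 22-week BPH/2J, 136, 145 and 140 CPM in 4-week BPH/2J, and 148, 130 and 125 in BPN/3J, and it was not called in any of the 3 comparisons (0.17 ± 0.07 and 0.06 ± 0.07 for 22-week and 4-week BPH/2J against BPN/3J, and 0.11 ± 0.07 between the ages).

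In a wider list of antigen presentation genes outside the membership rule, calls went both ways. Of 53 listed genes 47 were measured and tested. Of these, 8 were higher and 9 lower in 22-week BPH/2J than in BPN/3J, with a median of 0.03. In 4-week BPH/2J 15 were higher and 10 lower than in BPN/3J, and between 22 and 4 weeks in BPH/2J 11 were higher and 15 lower. The shares called, 17, 25 and 26 of 47, are near the 38.0%, 53.1% and 41.0% called over all tested genes in the first 2 comparisons and above it in the age comparison, and the list was not tested as a whole. Both comparisons with BPN/3J share its libraries, and the age comparison shares the BPH/2J libraries with them.

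Of 11 transcription factors of MHC genes, 3 were lower and 1 higher in 22-week BPH/2J than in BPN/3J, a share near the 38.0% of all tested genes. Irf8, an interferon regulatory factor of myeloid cells and B cells, had 13.4, 11.3 and 14.6 CPM in 22-week BPH/2J, 18.7, 25.5 and 22.3 CPM in 4-week BPH/2J, and 61.3, 55.5 and 46.6 in BPN/3J (-2.06 ± 0.14, adjusted p = 2.95e-06). Irf1, which interferon gamma induces and which binds ISREs, had 247, 224 and 225 CPM in 22-week BPH/2J, 196, 192 and 182 CPM in 4-week BPH/2J, and 320, 301 and 305 in BPN/3J (-0.41 ± 0.06, adjusted p = 0.000573). Rfx5, a subunit of the X-box complex, was higher, at 15.0, 16.1 and 16.3 CPM in 22-week BPH/2J, 13.1, 10.7 and 9.70 CPM in 4-week BPH/2J, and 9.79, 9.49 and 8.53 in BPN/3J (0.77 ± 0.12, adjusted p = 0.000638). None of the 3 genes overlapped between 22-week BPH/2J and BPN/3J.

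In the other groups of the wider list the shares called are likewise set against 38.0% of all tested genes. Of 8 interferon receptor and feedback genes 3 were higher and 0 lower in 22-week BPH/2J than in BPN/3J, among them the interferon receptor chain Ifnar1 (0.55 ± 0.05, adjusted p = 2.48e-05). Of 6 class II proteases and reductases 3 were lower and 0 higher, among them cathepsin S, Ctss (-1.13 ± 0.29, adjusted p = 0.0106), which cuts the invariant chain, and the thiol reductase Ifi30 (-0.51 ± 0.14, adjusted p = 0.0184). Of 7 tested class I-like genes outside the H2 complex 3 were higher and 1 lower, with Procr, the endothelial protein C receptor, higher (0.62 ± 0.13, adjusted p = 0.00473), as was Mr1, which shows vitamin B metabolites to MAIT cells (0.86 ± 0.21, adjusted p = 0.00921).

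Between 22 and 4 weeks in BPH/2J, the 4 class I loading chaperones gave 1 higher and 3 lower genes, where 41.0% of all tested genes were called. Calr, calreticulin, had 412, 449 and 443 CPM at 22 weeks, against 537, 1038 and 970 CPM at 4 weeks (-0.96 ± 0.19, adjusted p = 0.00296), and Canx, calnexin, was lower as well (-0.63 ± 0.16, adjusted p = 0.0105). Tapbpl, a relative of tapasin that edits class I peptides, was higher (0.54 ± 0.11, adjusted p = 0.00274). Fcgrt, the neonatal Fc receptor chain that also pairs with B2m, was higher at 22 weeks with 193, 185 and 199 CPM, against 119, 94.5 and 104 CPM at 4 weeks (0.86 ± 0.08, adjusted p = 3.79e-05). Calr and Canx of 4-week replicate 1 lay apart from the other two libraries of that group, 537 and 307 CPM against 970 to 1038 and 498 to 527.

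The authors' deposited table gives the same directions at its own false discovery rate below 0.05. In the authors' deposited table, BPN/3J minus 22-week BPH/2J has 26 of the 39 members higher and 0 lower, 4-week BPH/2J minus BPN/3J has 0 higher and 34 lower, and 4-week minus 22-week BPH/2J has 0 higher and 19 lower, where a sign refers to the first group minus the second.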

How the data were processed

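The samples were 9 RNA sequencing libraries of bead-isolated mouse cardiac endothelium in 3 groups of 3, read with 100-cycle single reads per the labels' protocols. The submitters' processing notes name CASAVA 1.8.2, TopHat2 2.0.13, Bowtie2, featureCounts, edgeR and the build mm9, with no roles or settings; strandedness, the annotation and the handling of reads that match several genes were, in the sources used here, not stated. The authors deposited 1 table of 18094 genes with raw counts per library, CPM values that equal count over library total, log2 fold changes, and p-values with false discovery rates of their own comparisons. A deposited length column served for CPM per kb.

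Counts were tested with edgeR 4.0.16 (R 4.3.3; filterByExpr, TMM, 1 quasi-likelihood fit over all 9 libraries, Benjamini-Hochberg adjustment over 15277 genes), and the code was tested on simulated data. CPM of at most 3 counts mark the counting floor and cover counting error only. Symbols that a spreadsheet had turned into dates (21) were restored by identifier, and 854 genes kept their identifier. No pair of libraries agreed within sampling noise (chi-square per degree of freedom 6.06 to 49.1 within groups). Mitochondrial counts were 1.19 to 2.78% of a library.

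Values per library are given for every classical and processing gene, Cd74 and Ciita, and in the other classes for the 6 members of highest mean CPM and the 3 called members with the largest difference in each comparison among those reaching 1 CPM. Other genes of the wider list were named by smallest adjusted p, up to 2 per direction. The members and lists were chosen with earlier results of these data known. DESeq2 1.42.0, limma-voom (limma 3.58.1), other scalings and filters, a replicate block, fits of only the groups compared, a threshold of 0.01 and leaving out each library were the alternatives. RefSeq promoters were on GRCm38.p6, which is not the build of the counts.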

Additional observations from a re-analysis of the deposited data

How the results depend on the processing

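In all 3 comparisons the counts of called members, overall and per class, stayed within 1.5 times under the other scalings, filters and tools and with only the groups compared, and no called member changed sign under any alternative. At an adjusted p of 0.01 instead of 0.05, 3432 genes in all and 2 processing genes were called in 22-week BPH/2J against BPN/3J, and 3871 genes in all, 4 members, 2 non-classical, 1 class II and 1 processing gene between the ages of BPH/2J. Counts of the other classes between the strains at 0.01 are not given here. Members of those classes also had an adjusted p below 0.01 at 22 weeks, among them H2-D1, H2-K1, H2-Q7, H2-Aa and Cd74.

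Leaving out 1 library at a time gave 22 to 26 members called (6 to 7 class II, 10 to 12 non-classical, 3 to 5 processing, 2 classical) in 22-week BPH/2J against BPN/3J and 30 to 33 (9 to 11 class II, 13 to 14 non-classical, 6 to 7 processing, 2 classical) in 4-week BPH/2J against BPN/3J. Between the ages of BPH/2J it gave 4 to 19 members, 1 to 10 class II, 2 to 7 non-classical and 1 to 4 processing genes; without 4-week replicate 1, H2-M5 and H2-Q10 were called lower at 22 weeks (-0.77 and -0.35, adjusted p = 0.0259 and 0.0483). H2-DMa and H2-Q1 lost their 4-week calls against BPN/3J without 4-week replicate 3 (adjusted p = 0.0548 and 0.0511), and H2-DMa also without BPN/3J replicate 1 (0.0835). Over all genes the ranges were 4362 to 7117, 6968 to 8682 and 4606 to 7383 calls.

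Same-numbered libraries did not deviate together (correlations -0.203 to 0.103), so replicate numbers do not pair them. With the replicate block 24, 31 and 15 members and 5261, 7723 and 5758 genes in all were called in the 3 comparisons; the block lost H2-DMa at 22 weeks (adjusted p = 0.0736) and, between ages, Ciita (0.0654) and Cd74 (0.0669). DESeq2 lost the age call of Cd74 (adjusted p = 0.0705) and called H2-M3 lower in 22-week BPH/2J than in BPN/3J (0.0388); limma-voom lost the age calls of Ciita (0.0562) and H2-T10 (0.0629) and that of H2-DMa between the strains at 22 weeks (0.0506). H2-Oa, not called at 4 weeks against BPN/3J, was called by DESeq2 (0.0433), by limma-voom (0.0496) and with only those groups in the fit (0.0284), a fit that lost its age call (0.0511). Not called between the ages, H2-Eb1 was called with upper-quartile scaling (0.0479) and with only those groups in the fit (0.0312), and Psmb8 in that fit (0.00864). The causes were not tested. Depth limits H2-Eb2, H2-Q3, H2-Bl, H2-M5 and H2-Oa. H2-Ke6 also had few counts, but 61.6% of its transcript stretches of read length were shared with another gene. Whether its reads were left uncounted for that reason was not tested, so its counts do not give its level.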
